A study of Mus musculus with 6 samples.

Results

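The genes of the autophagy machinery were examined in the RNA of macrophages sorted from mouse tumours. The members are the 37 genes of the deposited table, out of 15487, whose symbol begins with Atg and a digit or is one of 19 named genes: Becn1, Ulk1, Ulk2, Sqstm1, Nbr1, Optn, Map1lc3a, Map1lc3b, Gabarap, Gabarapl1, Gabarapl2, Wipi1, Wipi2, Pik3c3, Pik3r4, Rb1cc1, Uvrag, Ambra1 and Tbk1. CT26, a mouse colon carcinoma line, was grown as an implanted tumour in BALB/C mice, and macrophages were taken by flow cytometry on day 15. The Sg-Con group (3 libraries) came from tumours of cells with a control guide, and the Sg-C3 group (3 libraries) from tumours of cells labelled Sg-C3, C3 being the central complement protein. The macrophages of both groups are labelled wild type and BALB/C, so the guide was in the tumour cells and not in the cells measured. The comparison asks how the macrophages of the 2 kinds of tumour differ. C3 RNA in the macrophages was 89.9, 78.2 and 59.7 FPKM in Sg-Con and 151, 199 and 170 FPKM in Sg-C3, which does not check a guide carried by the tumour cells. Whether each guide line was a clone, and whether mice were separate or pooled, is not stated. The p-values therefore measure only library-to-library spread, which may be technical.

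Autophagy encloses a piece of cytoplasm in a double membrane, the autophagosome, and delivers it to the lysosome. The ULK1 kinase complex starts the process, a class III PI3-kinase complex marks the site with the lipid PI3P, ATG9 and ATG2 proteins supply membrane, and a pair of ubiquitin-like conjugation systems attaches ATG8 proteins such as LC3 to the growing membrane. Cargo receptors such as p62 bind both ubiquitinated cargo and ATG8 proteins. In macrophages the conjugation enzymes also serve LC3-associated phagocytosis, in which LC3 is attached to the single membrane of a phagosome. RNA levels measure neither the proteins nor the flux through the pathway.

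Values are FPKM, a fragment count scaled to transcript length and library depth, so they can be compared between genes. They are given in the order of replicates 1, 2 and 3, written Con1 to Con3 and C3-1 to C3-3, which are numbered by accession and not paired across groups. The log2 fold change is the mean log2(FPKM + 1) of Sg-C3 less that of Sg-Con, a scale that understates the change of low genes. A gene is called when its limma adjusted p is below 0.05, with adjustment over all 11198 tested genes. SE is limma's standard error and ± is an SD with n = 3.

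The libraries summed to between 474579 and 487358 FPKM, and the steps between low values of short genes imply 17.6 to 19.3 megareads per library. Libraries correlated at r of 0.986 to 0.990 within groups and 0.945 to 0.974 between them, over log2 values of all genes. All 12 macrophage markers were tested, none was higher and 4 were lower (Cd68, Itgam, Mertk and Lyz2). Of all tested genes 12.7% were higher and 31.7% lower. The summed level of the 12 markers was 16700 to 18400 FPKM in Sg-Con and 10700 to 13300 in Sg-C3. Adgre1, 1 of the 8 markers not called, was at 173 ± 11.6 and 172 ± 29.8 FPKM (adjusted p = 0.896). Summed neutrophil markers were 114 to 204 FPKM in Sg-Con and 1310, 691 and 370 FPKM in Sg-C3 (7 of 10 did not overlap between the groups, all above, with Mpo and Elane below 1 FPKM in every library). Dendritic cell markers summed to 57.4 to 78.4 and 119 to 140 FPKM (8 of 12 above), with Flt3, Zbtb46, Cd209a, Itgae and Siglech below 1 FPKM in every library. Lymphocyte markers summed to 2.48 to 6.41 and 34.8 to 42 FPKM (10 of 11 above, Ncr1 below 1 FPKM throughout). Fibroblast markers summed to 67.5 to 93.3 and 143 to 208 FPKM (5 of 10 above and 2 below, Lum and Postn below 1 FPKM throughout), and endothelial markers to 9.37 to 17.7 and 59.7 to 78.7 FPKM (1 of 4 above and 1 below, Emcn below 1 FPKM throughout). Carcinoma markers summed to 29.2 to 63.6 and 2.98 to 7.7 FPKM (3 of 8 below, Cldn4 below 1 FPKM throughout). Among all tested genes 57.6% did not overlap between the groups, both directions counted, and the marker counts also include genes too low to be tested. Of the neutrophil, dendritic cell and lymphocyte markers 5, 5 and 6 were tested, and 4, 3 and 6 of those were called higher. Of 8 fibroblast markers tested 4 were higher and 2 lower, of 3 endothelial markers 1 and 1, and all 3 carcinoma markers tested were lower. Lymphocyte and carcinoma markers, with sums as low as 2.48 and 2.98 FPKM in a library, may have passed the filter only through their high group. The filter would then have fixed the direction of their calls, and this can hold for low genes of the other sets. The part of these cells in the results below was not tested, and in sorted bulk samples a change in cell make-up and a change in RNA per cell cannot be told apart.

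Autophagy genes changed in both directions. Of the 37 members, all of which passed the filter of 1 FPKM in 3 libraries, 5 rose (Optn, Atg2a, Sqstm1, Tbk1 and Atg9a), 8 fell (Atg9b, Atg7, Ulk2, Nbr1, Atg5, Wipi1, Atg4a and Atg13) and 24 did not pass. The called share was 35.1% of members against 44.4% of all tested genes, with 13.5% of members higher against 12.7% and 21.6% lower against 31.7%. In 21 members, or 56.8%, the groups did not overlap, against 57.6% of all tested genes. The shares higher and not overlapping were near the background, and the shares called and lower were below it. Their median log2 fold change was -0.09 against -0.16 for all tested genes, and the median size of the change, regardless of sign, was 0.25 against 0.34. Only Atg9b reached an absolute log2 fold change of 1 (2.7% of members against 8.61% of all tested genes).

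**Figure D1:**
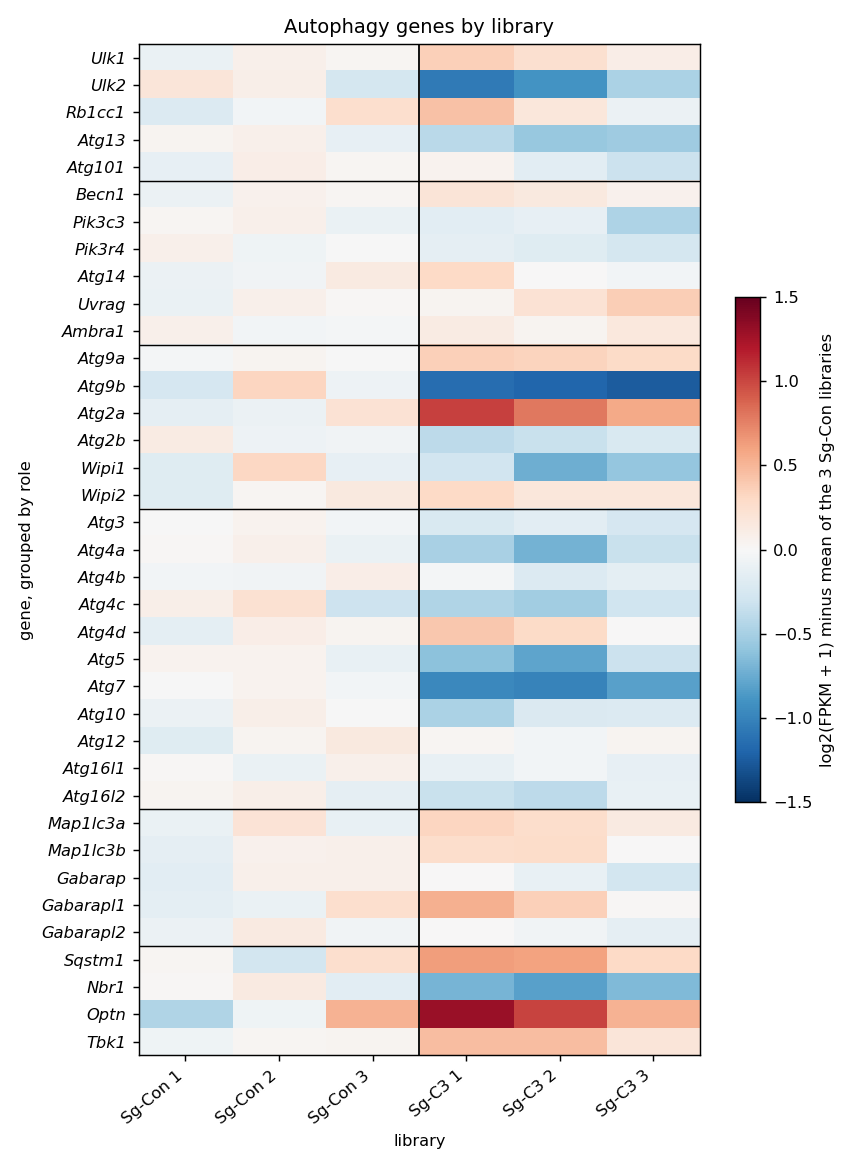
Each row is 1 of the 37 autophagy genes, grouped by role, and each column 1 library; colour is log2(FPKM + 1) minus the mean of the 3 Sg-Con libraries. Atg9b, Atg7 and Ulk2 are low in all 3 Sg-C3 libraries, and Atg2a and Optn are high, while the class III PI3-kinase and ATG8 rows stay pale.

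The split between higher and lower calls moved with the scaling. With median-ratio scaling, which sets the median change of all genes to 0, 12 members were higher and 6 lower, and with quantile normalization 7 and 7. Higher genes made up 38.5% of the members' calls with the deposited scaling, 50% with quantile normalization and 66.7% with median-ratio scaling, against 28.5%, 43.1% and 52.7% of the calls over all genes. The calls of Atg2a, Atg7, Ulk2, Nbr1 and Atg13 held in all 15 alternatives run. Atg9b passed the filter only through Sg-Con and was tested in 10 of them, so its call is no sign of stability. One alternative adds title style as a covariate, which separates Con3 and C3-3, titled in another manner, from the other 4 libraries. The other 7 calls were lost in at least 1 alternative, and without Con1, C3-1 or C3-2 a single member was higher, Atg2a.

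**Figure D2:**
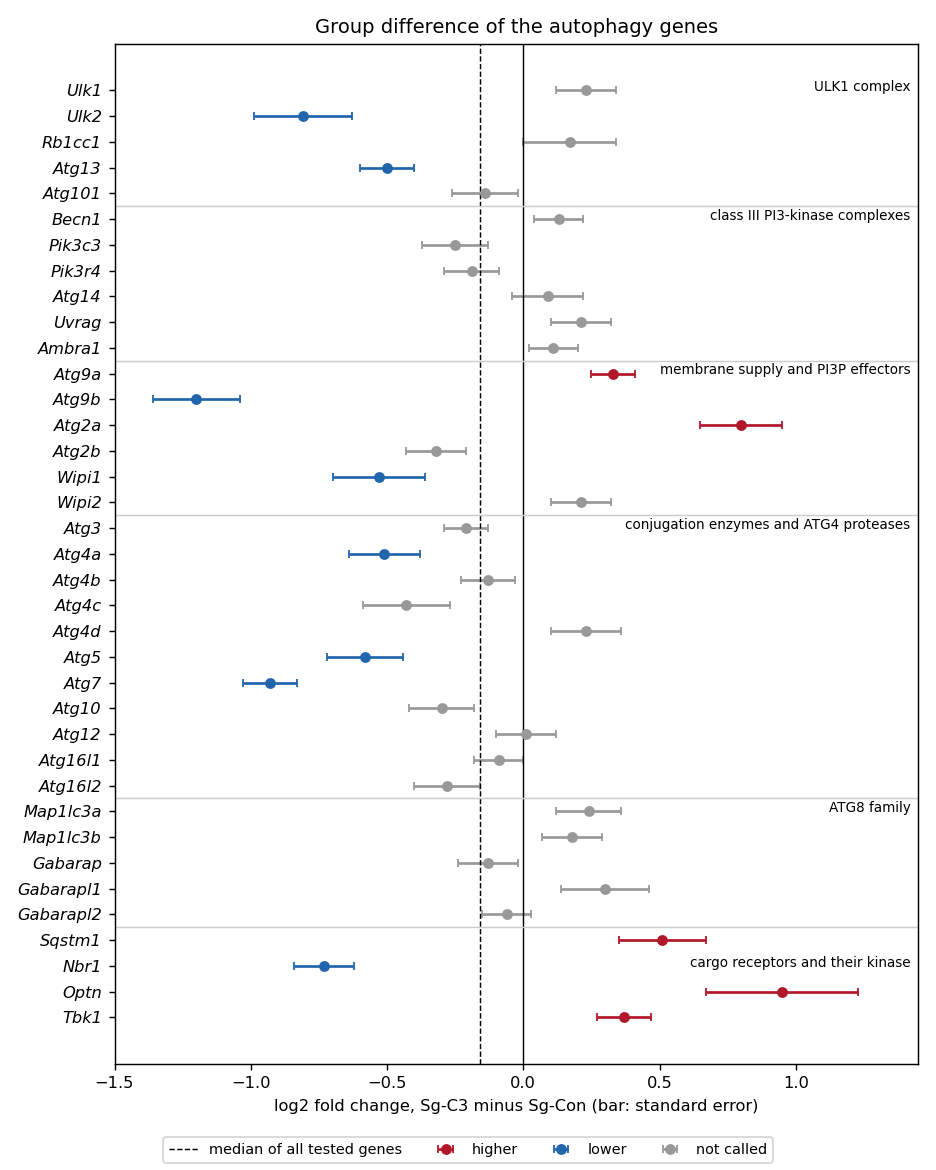
Points are log2 fold changes of the 37 genes (Sg-C3 minus Sg-Con), bars are limma standard errors, colour marks the call, and the dashed line is the median of all tested genes, -0.16. Called genes lie on both sides within the membrane supply and cargo receptor groups, and on the lower side in the ULK1 and conjugation groups with the deposited scaling.

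In the ULK1 complex, 2 of 5 members (40%, against 31.7% of all tested genes) fell and none rose with the deposited scaling. Ulk2, a kinase that can stand in for ULK1, measured 11.3, 10.6 and 8.1 FPKM in Sg-Con and 4.22, 4.86 and 6.82 FPKM in Sg-C3. Every Sg-C3 library was below every Sg-Con library, with replicate 3 the nearest to the other group on both sides (log2 fold change -0.81, SE 0.18, adjusted p = 0.0124). Atg13, the subunit that links the kinase to the scaffold FIP200, measured 15.8, 16.1 and 14.0 FPKM against 11.4, 9.95 and 10.2 FPKM. Its groups were apart as well (log2 fold change -0.50, SE 0.10, adjusted p = 0.00836). Ulk1 itself measured 9.68, 11.1 and 10.8 FPKM against 13.8, 12.6 and 11.3 FPKM. Its Sg-C3 values all lay above the Sg-Con values, but it did not pass (log2 fold change 0.23, adjusted p = 0.11), except with quantile normalization (adjusted p = 0.0342) and median-ratio scaling (0.0264). Rb1cc1, which encodes FIP200, and Atg101, a partner of ATG13, overlapped between the groups (log2 fold changes 0.17 and -0.14).

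None of the 6 class III PI3-kinase genes passed with the deposited scaling, where 44.4% of all tested genes did. Becn1, the Beclin 1 subunit, was at 59.8 ± 3.29 and 65.6 ± 3.06 FPKM, with Sg-C3 values just above those of Sg-Con (62.42 to 68.52 against 56.11 to 62.4 FPKM). The catalytic subunit gene Pik3c3 and the regulatory subunit gene Pik3r4 were at 7.11 ± 0.505 against 5.85 ± 0.831 and 5.46 ± 0.308 against 4.65 ± 0.256 FPKM, without overlap but not called (adjusted p = 0.136 and 0.143). Atg14, which directs the complex to the autophagosome, Uvrag, which directs it to endosomes, and Ambra1, a Beclin 1 regulator, overlapped between the groups (log2 fold changes 0.09, 0.21 and 0.11). With median-ratio scaling Becn1, Uvrag and Ambra1 were called higher (adjusted p = 0.0312, 0.0327 and 0.0332), and Ambra1 also with quantile normalization (0.0435).

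Of the 6 genes of membrane supply and PI3P binding, 2 rose (33.3%, against 12.7% of all tested genes) and 2 fell (33.3%, against 31.7%). The direction of 1 that fell, Atg9b, was fixed by the filter. Atg9a, the widely expressed lipid scramblase of autophagy, measured 15.3, 16.1 and 15.6 FPKM in Sg-Con and 20.3, 19.9 and 19.4 FPKM in Sg-C3. The groups were tight and apart (log2 fold change 0.33, SE 0.08, adjusted p = 0.0172). Its call was lost without Con1 (adjusted p = 0.0567), Con3 (0.0519), C3-1 (0.055) or C3-2 (0.0592), with log2 fold changes of 0.31 or 0.32. Its paralogue Atg9b measured 1.52, 2.74 and 1.84 FPKM against 0.35, 0.31 and 0.26 FPKM. It had the lowest mean level of the members, passed the filter only through its Sg-Con values and therefore had to differ (log2 fold change -1.20 with a pseudocount of 1 and -2.36 with 0.1, adjusted p = 0.00278 and 0.00256). Nos3, a gene whose transcripts share sequence with Atg9b, was at 0.15 to 0.34 FPKM in Sg-Con and 0.04 to 0.06 FPKM in Sg-C3, and 6.14% of the 50-base stretches of Atg9b also occur in it.

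Atg2a, which encodes a lipid transfer protein that feeds the growing membrane, measured 14.8, 15.4 and 19.2 FPKM against 34.4, 29.1 and 24.8 FPKM. The lowest Sg-C3 value was above the highest Sg-Con value (16.5 ± 2.38 against 29.4 ± 4.81 FPKM, 1.79-fold, log2 fold change 0.80, SE 0.15, adjusted p = 0.00685). Its paralogue Atg2b went from 3.59 ± 0.354 to 2.68 ± 0.208 FPKM without overlap and just missed the threshold (log2 fold change -0.32, adjusted p = 0.0506), and it was called lower without C3-3 (0.0493) and with array weights (0.0355). Wipi1, a reader of PI3P, measured 7.02, 10.3 and 7.36 FPKM against 6.49, 4.49 and 5.09 FPKM. The groups did not overlap (log2 fold change -0.53, SE 0.17, adjusted p = 0.0423), but the call was lost without Con2 (log2 fold change -0.38, adjusted p = 0.113), Con3 (0.0595), C3-2 (0.136) or C3-3 (0.085) and with either other scaling (0.13 and 0.137), title style as a covariate (0.0631) or no filter (0.0572). Wipi2, the PI3P reader that recruits ATG16L1, was at 9.49 to 12.18 FPKM and 12.36 to 13.58 FPKM and did not pass (adjusted p = 0.163), except with median-ratio scaling (0.0352).

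Ratios within a library do not depend on the scaling between libraries. The pairs below were chosen after their values were seen, so their ratios are a description with no test. Ulk1 over Ulk2 was 0.854, 1.05 and 1.33 in the Sg-Con libraries and 3.26, 2.58 and 1.66 in the Sg-C3 libraries. Atg9a over Atg9b ran from 5.88 to 10 in Sg-Con and from 58 to 74.4 in Sg-C3. Atg9b passed the filter only through Sg-Con, so the gap of this pair was largely fixed by the filter. Atg2a over Atg2b ran from 3.71 to 5.6 and from 8.52 to 13.8. These pairs and Wipi2 over Wipi1 (1.09 to 1.65 against 2.09 to 2.75) had no overlap between the groups. In each, the first gene lay above and the second below in Sg-C3 without overlap. Their ratios therefore could not overlap and add nothing to the values of the single genes. Atg16l1 over Atg16l2 overlapped (1.62 to 2.23 against 1.88 to 2.56).

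**Figure D3:**
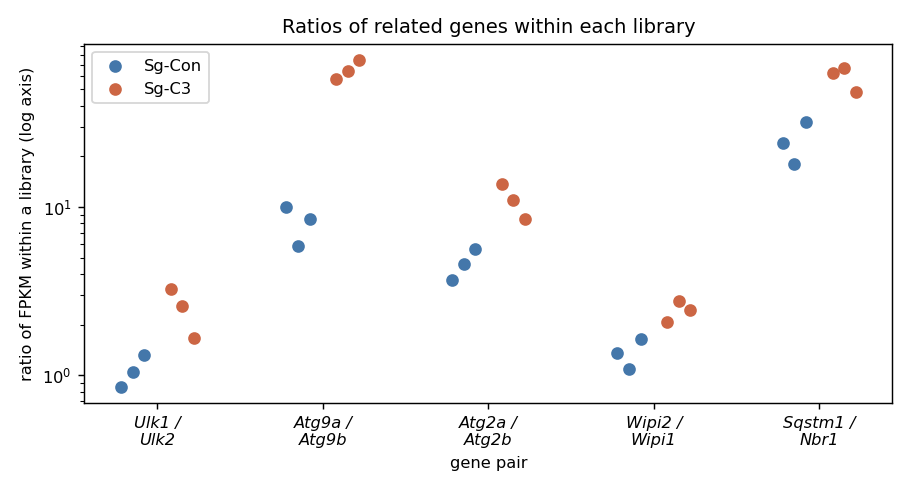
Each point is the ratio of the FPKM of 2 genes within 1 library, on a log axis, with Sg-Con in blue and Sg-C3 in orange. The 3 Sg-C3 ratios lie above the 3 Sg-Con ratios in each of the 5 pairs drawn, which were chosen after their values were seen. This had to be so, because in Sg-C3 the first gene of each pair lay above and the second below, without overlap. Atg9b passed the filter only through Sg-Con, and Atg16l1 over Atg16l2, which overlapped, is not drawn.

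Among the conjugation enzymes and ATG4 proteases, 3 of 11 members (27.3%) fell, a share below the 31.7% of all tested genes, and none rose. The median log2 fold change of the 11 was -0.28, against -0.16 for all tested genes. Atg7, the E1-like enzyme that activates both ATG12 and the ATG8 proteins, measured 16.9, 17.7 and 16.5 FPKM in Sg-Con and 8.19, 7.96 and 9.24 FPKM in Sg-C3. Its Sg-C3 mean was 0.497 times the Sg-Con mean, with the groups far apart relative to their spread (log2 fold change -0.93, SE 0.10, adjusted p = 0.00156). Atg5, which is joined to ATG12 in the E3-like complex, measured 14.8, 14.9 and 13.2 FPKM against 8.96, 7.83 and 11.3 FPKM. The groups did not overlap (log2 fold change -0.58, SE 0.14, adjusted p = 0.0145), with an adjusted p of 0.0503 without C3-2. Atg4a, one of 4 protease genes that process ATG8 proteins, measured 6.42, 6.75 and 5.86 FPKM against 4.24, 3.49 and 4.84 FPKM (log2 fold change -0.51, adjusted p = 0.0172). Its call was lost without Con2 (adjusted p = 0.0566) or C3-2 (0.058) and with median-ratio scaling (0.0554). Of its 50-base stretches, 51.2% also occur in the pseudogene Atg4a-ps, so its FPKM is uncertain.

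The remaining members of this group did not pass. Atg3, the E2-like enzyme for ATG8 proteins, was at 32.0 ± 1.18 and 27.5 ± 0.937 FPKM without overlap (log2 fold change -0.21, adjusted p = 0.0695). Atg10, the E2-like enzyme for ATG12, was at 2.88 ± 0.245 and 2.16 ± 0.318 FPKM, also without overlap (adjusted p = 0.0795). Atg12 itself differed least of all members with the deposited scaling, at 14.8 ± 1.79 and 14.9 ± 0.488 FPKM. Its log2 fold change was 0.01, but 0.13 with quantile normalization and 0.19 with median-ratio scaling, where other members differed less. Atg16l1, the partner that places the complex on membranes, and its paralogue Atg16l2 had log2 fold changes of -0.09 and -0.28, and Atg16l2 was called lower without C3-3 (adjusted p = 0.0458). Atg4b, the main LC3 protease, Atg4c and Atg4d had log2 fold changes of -0.13, -0.43 and 0.23. Atg4c was called lower without Con3 (adjusted p = 0.0202).

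**Figure D4:**
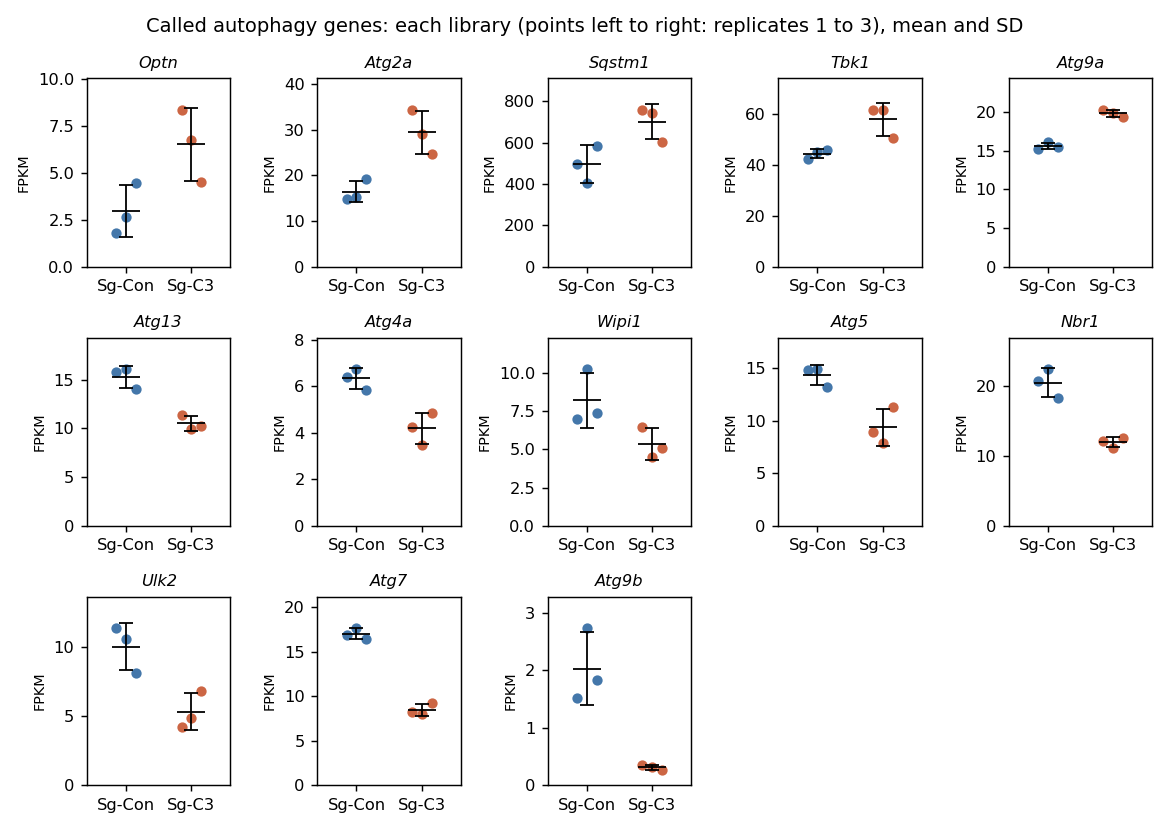
Each panel is 1 of the 13 called genes, from the highest to the lowest log2 fold change, with FPKM of each library as a point and the mean and SD of 3 libraries in black; axes start at 0. No gene overlaps between the groups, and Optn has the smallest gap, with 4.49 FPKM in Con3 and 4.5 FPKM in C3-3.

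The sequence before the start of these genes was searched for the E-box CACGTG, the core of the sites bound by TFEB and related lysosomal regulators. Promoters came from the RefSeq table of GRCm38.p6 (a C57BL/6J genome, not the mm8 build named for the files), with 250 bases before and 50 after the start, and 31 of the 37 members matched. An E-box on either strand (the letters read the same on both) was found for 5 members, Atg3, Atg5, Atg7, Atg14 and Tbk1, or 16.1%, against 8.09% of 27025 genes. Of the 9 conjugation genes with an entry 3 held one, and those are shown because they hold the called enzymes Atg7 and Atg5 and the uncalled Atg3. The 250 bases before the start are chr16:45158579-45158828 for Atg3, chr10:44268089-44268338 for Atg5 and chr6:114670846-114671095 for Atg7, all on the plus strand, 5′ to 3′, with capitals for the E-box.
Atg3: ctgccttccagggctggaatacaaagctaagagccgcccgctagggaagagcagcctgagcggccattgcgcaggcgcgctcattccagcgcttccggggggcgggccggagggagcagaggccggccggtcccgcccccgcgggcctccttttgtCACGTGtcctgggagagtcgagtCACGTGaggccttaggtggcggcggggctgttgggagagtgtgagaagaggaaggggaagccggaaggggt
Atg5: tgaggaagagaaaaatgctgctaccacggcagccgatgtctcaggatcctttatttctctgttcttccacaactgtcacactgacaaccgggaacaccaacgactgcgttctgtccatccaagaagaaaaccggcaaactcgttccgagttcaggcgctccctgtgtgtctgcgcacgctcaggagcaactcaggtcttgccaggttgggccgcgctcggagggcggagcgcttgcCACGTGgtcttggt
Atg7: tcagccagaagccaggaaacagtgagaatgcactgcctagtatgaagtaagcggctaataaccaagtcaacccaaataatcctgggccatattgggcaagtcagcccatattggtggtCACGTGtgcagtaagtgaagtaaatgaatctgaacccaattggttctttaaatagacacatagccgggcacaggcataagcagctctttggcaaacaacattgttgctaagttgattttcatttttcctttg
The E-boxes begin 94 and 71 bases before the start of Atg3, 14 bases before that of Atg5 and 132 bases before that of Atg7. Atg3 was the only member with the longer form TCACGTGA, which overlaps its second E-box and is held by 1.12% of all genes. The antioxidant response element core TGACNNNGC was found for Ulk2, Atg13 and Map1lc3b (9.68% of members, 14% of all genes), and the interferon response element core (GAAA, any 2 bases, GAAA) for Nbr1 alone (3.23% and 3.99%), both strands searched. None of the 5 genes that rose held these last 2 motifs in the window, which says little for 5 genes at those shares over all genes. A match is a run of letters and not a measured binding site.

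The ATG8 family, whose products carry autophagy membranes and bind receptors, had no called member among 5, against 44.4% of all tested genes called. Gabarap was the most abundant of them, at 334 ± 29.8 and 306 ± 29.4 FPKM, and with Sqstm1 it led the members in both groups. Map1lc3b, the LC3B gene, was at 71.8 ± 5.56 and 81.8 ± 8.43 FPKM (log2 fold change 0.18, adjusted p = 0.202). Map1lc3a was at 16.6 ± 2.25 and 19.8 ± 1.31 FPKM (adjusted p = 0.125). With median-ratio scaling both LC3 genes were called higher (adjusted p = 0.035 for Map1lc3a and 0.0458 for Map1lc3b). Gabarapl1 measured 43.9, 45.4 and 58.0 FPKM against 71.1, 62.5 and 49.4 FPKM. Its groups overlapped through replicate 3 of each (log2 fold change 0.30, adjusted p = 0.161), and it was called higher without C3-3 (0.45, adjusted p = 0.0474). Gabarapl2 was at 49.5 ± 4.09 and 47.4 ± 2.38 FPKM.

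Within the family the make-up shifted a little. Gabarap made up 63.6%, 64.5% and 64.1% of the summed ATG8 FPKM in Sg-Con and 59.4%, 58.7% and 59.8% in Sg-C3. Map1lc3b made up 13.9%, 13.7% and 13.8% and then 15.4%, 16.5% and 15.7%. Neither share overlapped between the groups. Nor did those of Map1lc3a (2.8% to 3.52% against 3.71% to 3.99%) and Gabarapl1 (8.32% to 10.6% against 10.7% to 12.7%), while that of Gabarapl2 overlapped. Shares of a sum depend on each other, so a lower Gabarap share raises the rest and these are not separate results. These shares were computed after the values were seen and carry no test, and the family's sum was 471 to 547 FPKM in Sg-Con and 460 to 562 FPKM in Sg-C3. Of the 50-base stretches of Gabarapl1, 23.1% also occur in 1700101I11Rik, and 8.81% of those of Gabarapl2 in Gm3724, so reads may be shared there.

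All 4 cargo receptor genes, with the kinase Tbk1 counted among them, were called, 3 higher and 1 lower. Of all tested genes 44.4% were called, 12.7% higher and 31.7% lower, and each of the 3 higher calls was lost in some alternatives. Sqstm1, which encodes the receptor p62, had the highest FPKM of all members in both groups. It measured 497, 403 and 584 FPKM in Sg-Con and 758, 743 and 603 FPKM in Sg-C3. The groups did not overlap, with Con3 and C3-3 close together (495 ± 90.9 against 701 ± 85.7 FPKM, log2 fold change 0.51, SE 0.16, adjusted p = 0.0346). The call was lost without Con1 (adjusted p = 0.0705), Con2 (0.0827, log2 fold change 0.37), C3-1 (0.0997) or C3-2 (0.111), and with title style as a covariate (0.0592). Nbr1, a receptor that acts with p62, measured 20.8, 22.4 and 18.3 FPKM against 12.2, 11.1 and 12.5 FPKM. It went the other way, with the groups well apart (log2 fold change -0.73, SE 0.11, adjusted p = 0.0034), and Sqstm1 over Nbr1 ran from 17.9 to 32 in Sg-Con and from 48.3 to 66.8 in Sg-C3. That gap follows from the values of the single genes.

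Optn, which encodes optineurin, a receptor for ubiquitinated mitochondria and bacteria, measured 1.79, 2.65 and 4.49 FPKM in Sg-Con and 8.38, 6.75 and 4.5 FPKM in Sg-C3. The replicate 3 libraries all but touched (log2 fold change 0.95, SE 0.28, adjusted p = 0.0318). Its call was lost without Con1 (0.72, adjusted p = 0.0801), Con2 (0.91, adjusted p = 0.0789), C3-1 (0.77, adjusted p = 0.102) or C3-2 (0.91, adjusted p = 0.0947), and with title style as a covariate (adjusted p = 0.051). Tbk1, the kinase that phosphorylates optineurin and p62 and also acts in interferon induction, measured 42.5, 45.3 and 45.8 FPKM against 61.7, 61.8 and 50.6 FPKM. The groups did not overlap (log2 fold change 0.37, SE 0.10, adjusted p = 0.0257), but the adjusted p was 0.0759, 0.0581 and 0.0526 without Con1, Con2 and Con3 and 0.0805 and 0.092 without C3-1 and C3-2.

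The genes that rose shared a pattern across libraries. All 5 had their lowest Sg-C3 value in C3-3, and 4 of 5 had their highest in C3-1 and their highest Sg-Con value in Con3. Summed neutrophil markers were likewise highest in C3-1 (1310 FPKM) and lowest in C3-3 (370 FPKM), and highest in Con3 (204 FPKM). They were lowest in Con2 (114 FPKM), whereas 4 of the 5 genes had their lowest Sg-Con value in Con1. The genes that fell had their highest Sg-Con value in Con2 in 7 of 8 cases and their lowest Sg-C3 value in C3-2 in 6 of 8. Summed carcinoma markers were also highest in Con2 (63.6 FPKM) and lowest in C3-2 (2.98 FPKM). They were lowest in Con1 (29.2 FPKM) within Sg-Con, whereas 6 of the 8 genes were lowest in Con3. Summed macrophage markers were highest in Con2 (18400 FPKM) and lowest in Con3 (16700 FPKM) within Sg-Con. Within Sg-C3 they were lowest in C3-1 (10700 FPKM) and highest in C3-3 (13300 FPKM). Summed dendritic cell, lymphocyte and fibroblast markers were highest in C3-2 within Sg-C3, and endothelial markers in C3-3. The part of any marker set in these patterns was not tested. Without Con3 and C3-3, an alternative chosen after seeing the data, 5 members were higher and 8 lower, with Gabarapl1 (log2 fold change 0.57), Atg4c (-0.65) and Atg16l2 (-0.43) gained and Atg9a (0.34) and Wipi1 (-0.57) lost.

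Genes around the core machinery were counted from 9 further lists. Over all tested genes, 12.7% were higher and 31.7% lower with the deposited scaling, 16.6% and 21.9% with quantile normalization, and 19.6% and 17.6% with median-ratio scaling. Among further autophagy factors, 1 of 16 tested genes rose and 5 (31.2%) fell, and 2 were higher and 2 lower with median-ratio scaling. The one that rose is listed as 5031414D18Rik, a RefSeq synonym of Rubcnl (Pacer), which promotes autophagosome maturation, at 1.92, 1.71 and 1.72 FPKM against 5.79, 5.02 and 5.64 FPKM (log2 fold change 1.22, adjusted p = 0.00107). Rubcn, which encodes Rubicon, an inhibitor of maturation that is needed for LC3-associated phagocytosis, fell from 6.62, 5.4 and 5.16 FPKM to 1.8, 2.02 and 3.12 FPKM (log2 fold change -1.04, adjusted p = 0.00488). These related genes changed in opposite directions, each without overlap between the groups. Bcl2l1, which encodes the Beclin 1 binding protein BCL-XL, and Wdr45, a PI3P reader, fell (log2 fold changes -0.68 and -0.42), and Wdr45 was not called without Con2 (adjusted p = 0.0511) or C3-2 (0.0546) or with either other scaling (0.0738 and 0.0797).

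Further selective receptors had 1 of 12 tested genes higher and 6 (50%) lower, against 31.7% of all tested genes lower. The 6 became 3 with quantile normalization and 2 (16.7%, against 17.6%) with median-ratio scaling. Tax1bp1, a receptor that binds ubiquitin like p62, rose from 62.9, 73.8 and 77.6 FPKM to 125, 137 and 94.8 FPKM (log2 fold change 0.72, adjusted p = 0.0102). The mitophagy receptor genes Bnip3 and Bnip3l fell (log2 fold changes -1.18 and -0.56), as did Phb2 (-0.49), a mitochondrial membrane protein gene. Bnip3 went from 54.3, 86.1 and 76.4 FPKM to 29.55, 29.64 and 33.01 FPKM. Bnip3l was not called without C3-1 (adjusted p = 0.0516) or C3-2 (0.0718) or with median-ratio scaling (0.0946).

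In the lysosome fusion list 5 of 14 genes (35.7%, near the 31.7% of all tested genes) fell and none rose, and with median-ratio scaling 2 were lower and 1 higher. Lamp1, a major lysosomal membrane protein gene, fell from 650 ± 40.1 to 433 ± 16.4 FPKM (log2 fold change -0.58, adjusted p = 0.00353) and Lamp2 from 211 ± 9.24 to 147 ± 16.5 FPKM (-0.53), with an adjusted p of 0.0547 for Lamp2 with median-ratio scaling. Of the 6 subunit genes of the HOPS tethering complex, 3 fell, Vps33a, Vps39 and Vps16 (log2 fold changes -0.49, -0.47 and -0.34), and 3 were not called. Vps16 was named after its values were seen and was called in 7 of 15 alternatives. Its adjusted p was 0.108 with quantile normalization, 0.216 with median-ratio scaling and 0.0651 with title style as a covariate. Vps39 was not called without Con1, Con2, C3-1 or C3-2 (adjusted p = 0.0617, 0.0548, 0.065 and 0.0725) or with either other scaling (0.0587 and 0.0759). Of the 7 MiT and FOXO transcription factor genes only Foxo4 was called, lower (-0.56), and not without Con1 (adjusted p = 0.0551), Con2 (0.0592) or C3-2 (0.0682) or with either other scaling (0.0568 and 0.0585). Tfeb, the gene of the main regulator of lysosomal and autophagy genes, was at 9.09 ± 2.01 and 6.69 ± 1.11 FPKM (adjusted p = 0.107), Tfe3 at 35.9 ± 2.3 and 31.4 ± 2.25 FPKM (0.137), and Foxo1 at 3.59 ± 0.62 and 4.89 ± 0.54 FPKM (0.0624). Foxo1 was called higher without Con3 (0.0399) or C3-3 (0.044), with array weights (0.0487) and with both other scalings (0.0247 and 0.0256).

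The counts of upstream regulators moved with the scaling. Of 20 tested genes of mTORC1, the kinase complex that restrains ULK1 when nutrients are plentiful, and of its lysosomal regulators, 10 (50%, against 31.7% of all tested genes) fell and none rose. With quantile normalization 6 were lower, and with median-ratio scaling 4 (20%, against 17.6%): Deptor, Lamtor1, Lamtor4 and Lamtor5. The median of this list was -0.31, and with the deposited scaling the genes that fell included all 5 subunits of the Ragulator, which holds mTORC1 on the lysosome. Lamtor1, its membrane anchor, fell from 82.5, 94.8 and 82.1 FPKM to 46.2, 41.2 and 49.3 FPKM (log2 fold change -0.91, adjusted p = 0.00194), and Lamtor3 and Lamtor5 fell as well (-0.45 and -0.49). With median-ratio scaling Lamtor3 had an adjusted p of 0.0619, and Lamtor2, named after its values were seen, 0.0776. Deptor, an mTOR inhibitor gene, fell (-1.16), and Mtor was at 5.65 ± 0.201 and 5.68 ± 0.626 FPKM, named after its values were seen. Among 10 AMPK and energy stress genes 5 fell, including the catalytic subunit gene Prkaa1 (-0.56), Prkag2 (-1.25) and Sesn1 (-0.95), and 1 rose, the mTORC1 inhibitor gene Ddit4 (1.34). This list turned to 4 higher and 3 lower with quantile normalization and to 4 higher and 2 lower (Prkag2 and Sesn1) with median-ratio scaling. Prkaa1 was not called without C3-2 (adjusted p = 0.0513) or with either other scaling (0.0553 and 0.0608).

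The partners of Tbk1 rose in 3 of 6 cases (50%, against 12.7% of all tested genes) and fell in 1 (16.7%, against 31.7%). Tank and Azi2, adaptors of the kinase, and Ikbke, the gene of a related kinase, had log2 fold changes of 0.42, 0.32 and 0.44 (adjusted p = 0.0267, 0.0278 and 0.0492), and Irf3, a substrate, -0.55 (0.0324). Like the call of Tbk1, these calls were lost without some libraries. The adjusted p of Tank was 0.0772, 0.0632, 0.0645 and 0.0934 without Con2 and Con3 and C3-1 and C3-2. That of Azi2 was 0.0647 to 0.0939 without any Sg-Con library, C3-1 or C3-2, and that of Irf3 0.0785 to 0.107 without Con1 or Con2 or C3-1 or C3-2. That of Ikbke was 0.106 to 0.132 without Con2 or Con3 or C3-1 or C3-3, and 0.0513 to 0.0763 with a pseudocount of 0.1, no filter, array weights or title style as a covariate. Irf3 was not called with either other scaling (0.0646 and 0.0992) or with title style as a covariate (0.053).

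Of the 6 genes of the NADPH oxidase used in LC3-associated phagocytosis, 2 rose (33.3%, against 12.7% of all tested genes) and 1 fell (16.7%, against 31.7%). With median-ratio scaling 4 were higher (66.7%, against 19.6%). Cybb, the catalytic chain, rose from 220, 180 and 202 FPKM to 323, 399 and 385 FPKM (log2 fold change 0.88, adjusted p = 0.00272), and Rac2, its GTPase, rose too (0.58, with an adjusted p of 0.0517 without C3-1). Ncf1, a cytosolic subunit gene, fell from 119 ± 20.5 to 60.3 ± 7.33 FPKM (-0.96, adjusted p = 0.00392), and Cyba was at 614 ± 36.5 and 525 ± 40.5 FPKM (adjusted p = 0.0899). In the NRF2 and KEAP1 list, whose proteins are tied to p62 because p62 binds KEAP1, 2 of 9 genes rose (22.2%, against 12.7%). The 3 that fell (33.3%, near the 31.7% of all tested genes) became 1 with median-ratio scaling (11.1%, against 17.6%). Txnrd1 and Slc7a11, antioxidant genes, rose (log2 fold changes 1.08 and 1.35), and Keap1 and the heme oxygenase gene Hmox1 fell (-0.43 and -1.55). Txnrd1 was not called without Con1 or Con2 or C3-1 or C3-2 (adjusted p = 0.059, 0.0636, 0.0662 and 0.076), Slc7a11 not without C3-1 or C3-2 (0.0505 and 0.0511), and Keap1 not with median-ratio scaling (0.0562). The NRF2 target genes Txnrd1 and Hmox1 thus changed in opposite directions.

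**Figure D5:**
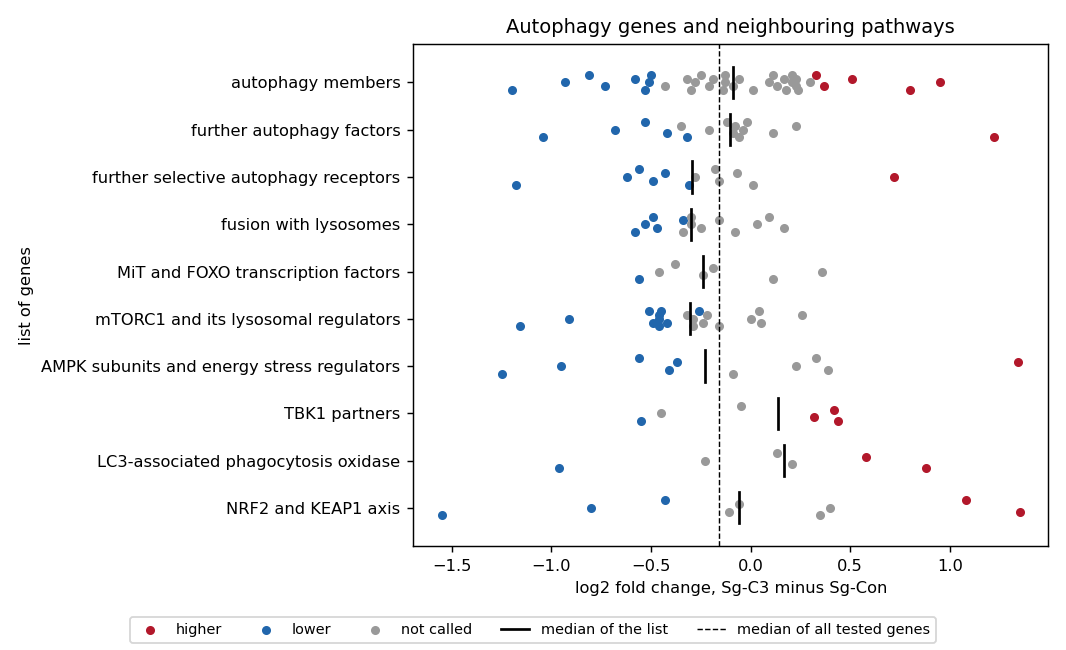
Each point is the log2 fold change of 1 tested gene (Sg-C3 minus Sg-Con) in the autophagy members and 9 neighbouring lists, coloured by call, with the median of each list as a black bar and the median of all tested genes, -0.16, as a dashed line. Values are with the deposited scaling. Points of the mTORC1 list lie mostly below 0 with a median of -0.31, and those of the TBK1 partners, the oxidase and the NRF2 list lie on both sides.

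Shared sequence limits a few of these values, since the counting of reads is not described and its use of strand is not given. Of the 50-base stretches in GENCODE M21 transcripts, Sqstm1 shared 15.5% with Mrnip, a gene at 1.83 to 2.71 FPKM (log2 fold change 0.1, adjusted p = 0.582). Atg9a shared 29.7% with Gm29253 and Becn1 36.8% with Cntd1, which was at 0.37 to 0.63 FPKM. Atg4d shared 14.6% with Kri1, which was called lower (log2 fold change -0.48, adjusted p = 0.0326), and Uvrag 15.9% with Gm45187. Atg7, Atg5, Ulk2, Nbr1 and Wipi1 shared none.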

How the data were processed

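RNA sequencing of 6 libraries, 3 per group as labelled by tumour source, was used as deposited: FPKM computed by the authors per gene and library, per the file headers. Bowtie 0.12.2 and the mm8 build appear in the submitters' processing notes, no source used here names the FPKM tool, and the labels' protocols name 2 library kits. No counts were used, so there was no count test. The filter kept 11198 genes that reached 1 FPKM in 3 or more libraries. Limma 3.58.1 (R 4.3.3, trend) was fitted to log2(FPKM + 1), with Benjamini-Hochberg adjustment over those genes. The script was tested on simulated data. Python 3.11.15, pandas 2.3.3, numpy 2.4.6 and matplotlib 3.10.9 were used for the rest. Depth was estimated from 395 short non-coding genes, taking 36 bases from each length, with 88.4% to 94.1% of values within 0.1 of a whole read.

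The members, the lists and the alternatives were chosen with earlier results of these data known. Named genes are every member, and from each other list the 4 smallest p and any called gene with an absolute log2 fold change of at least 1. Symbols came from the table, with 23 date-like ones restored from RefSeq identifiers, and 4 symbols of the lists were not among its rows. Alternatives were a pseudocount of 0.1, no filter, a mean of at least 5 FPKM, array weights, quantile normalization, a robust prior, median-ratio scaling, title style as a covariate, an adjusted p below 0.1 and leaving out each library. One list of cell type markers is not reported here.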

Additional observations from a re-analysis of the deposited data

How the results depend on the processing

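The 5 higher and 8 lower members became 12 higher with median-ratio scaling and 3 higher with title style as a covariate, and 13 lower at an adjusted p below 0.1. Leaving out 1 library gave 1 to 6 higher and 5 to 9 lower members. Over all genes, 1418 higher and 3554 lower calls became 2199 and 1972 with median-ratio scaling, and 810 to 1423 higher and 1970 to 3639 lower calls when 1 library was left out. No called member changed direction under any alternative run. Among members that were not called the sign turned with median-ratio scaling for Atg101 (0.04), Atg4b (0.05), Atg16l1 (0.08), Gabarap (0.06) and Gabarapl2 (0.13), with quantile normalization for Atg4b (0.01), Atg16l1 (0.07) and Gabarapl2 (0.01), and with array weights for Atg12 (-0.03). Leaving out libraries also turned it for Atg12 (-0.08 without Con1 and -0.0035 without C3-3), for Atg14 (-0.02 without C3-1, in a range up to 0.22 without Con3 and C3-3) and for Gabarapl2 (0.01 without Con2, in a range down to -0.1 without Con1). The cause of these changes was not tested beyond the fewer libraries or the other scaling themselves. Atg9b could be tested in only 10 alternatives, because it reached 1 FPKM only in Sg-Con. No paired analysis was possible because the labels give the groups no shared replicate numbers. At the estimated depth, differences in members near 1 FPKM rest on few reads.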
